A study of Rattus norvegicus with 14 samples.

Results

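The cytosolic ribosomal protein genes were examined in the dentate gyrus of rats after a session of spatial learning. They were taken as every probe set, a group of array oligonucleotides read as 1 value, whose only gene symbol in the platform annotation is Rpl or Rps with a number and at most 1 letter, or Rplp0, Rplp1, Rplp2 or Rpsa. Genes of the S6 kinases were left out. This gave 42 of the 10411 genes with a probe set of their own symbol, and 47 of 15866 probe sets other than controls: 31 for 29 genes of the large ribosomal subunit and 16 for 13 genes of the small subunit. Of the names covered, Rplp1 and Rplp2 had no probe set with a single symbol.

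The ribosome is built of a small subunit, which reads the messenger RNA, and a large subunit, which joins amino acids. Each ribosomal protein is made from its own messenger RNA, and most of these messages begin with a C followed by a run of C and T (U in the RNA), the terminal oligopyrimidine tract, through which the kinase mTORC1 controls how strongly they are translated. In neurons, ribosomal protein messages also occur in dendrites and axons, and new protein synthesis after training is needed for lasting memory in rodents.

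The 14 animals were male Long-Evans rats, 3 to 4 months old, and no genotype or drug separated them. All had first been trained in a standard water maze. Some 2 to 3 weeks later each had 8 trials in a second maze at a new site, where the 7 rats labelled Learning Activated found a visible platform in a constant place among spatial cues, and the 7 labelled Control found it in changing places without informative cues. A 90 s swim without platform came 1 h after training, directly before the tissue was taken, so the control rats had also swum, and no group without a maze is in the comparison. Total RNA of the dentate gyrus from each rat went on 1 Affymetrix RAE230A array. The values are log2 expression values from GCRMA, a method that corrects background, brings arrays to a common scale and merges the probes of a set. Array medians lay between 5.09 and 5.12, and pairs of arrays correlated at 0.995 to 0.998 across probe sets. Prox1, which defines dentate granule cells, was at 10.26 ± 0.25 in control and 10.33 ± 0.17 in learning rats (SD, n = 7 each). The number of arrays limits the precision.

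Annotated transcript starts were found for 37 of the 42 member genes in RefSeq's rat assembly GRCr8. A run of 5 or more bases of C or T that begins with C, starting within 5 bases of the annotated start on the gene's own strand, was present at 19 of 37 starts (51.4%), against 17.0% of 33469 starts of all genes in the table. The share was 52.0% for the large and 50.0% for the small subunit. Within 25 bases of the start it was 83.8% for the members and 54.9% for all starts. The starts below, with 10 bases before and 20 from the annotated start, show members with and without the tract near that point. They include the 3 genes of smallest p (Rpl5, Rpl7a and Rps28), the longest runs found (Rps23 and Rpl27a), the stalk gene Rplp0 and the kinase target Rps6. Capitals mark the run of C and T that starts within 5 bases of the annotated start.
Rpl5, chr14:1995206-1995235, minus strand: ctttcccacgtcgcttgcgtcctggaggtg
Rpl7a, chr3:30637126-30637155, plus strand: ctccagccgagcaagatggtgagtgattat
Rps28, chr7:15311314-15311343, minus strand: ccctgctcacgtgaCTCCTCTCCgctagat
Rps23, chr2:23814507-23814536, plus strand: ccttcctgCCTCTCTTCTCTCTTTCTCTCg
Rpl27a, chr1:172974563-172974592, plus strand: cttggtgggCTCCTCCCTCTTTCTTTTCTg
Rplp0, chr12:46718371-46718400, minus strand: caccgcaCTTCTCTCgccaggcgtcctcat
Rps6, chr5:106420521-106420550, minus strand: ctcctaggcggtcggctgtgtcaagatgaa
A match is a description of these letters, and its absence says only that no such run starts within 5 bases of the annotated start. Rpl5, Rpl7a and Rps6, printed without capitals, each had a run that starts within 25 bases. Among tested genes, represented by their probe set of highest mean, the median learning minus control difference was 0.02 log2 units for 19 genes with a run and 0.04 for 16 without one.

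Ribosomal protein messages read by the member probe sets, those with a single symbol, differed little between the groups. No member passed adjustment over all probe sets. Probe sets that list a ribosomal protein symbol among several are described further below. Of 31 such sets tested, 25.8% had an unadjusted p below 0.05 in limma, against 13.1% of all. The largest difference of any tested member was 0.15 log2 units, or 1.11-fold, for 1 of the probe sets of Rpsa. Of 47 member probe sets, 42 reached a mean of 4 on the log2 scale and were tested, representing 39 genes, with 25 higher and 17 lower in learning rats. Limma's moderated test, adjusted by the Benjamini-Hochberg method over 9387 probe sets, called 0 members at an adjusted p below 0.05, where it called 0% of all tested probe sets. At an unadjusted p below 0.05 it listed 3 members, Rpl5, Rps28 and Rpl7a, all higher in learning rats. That is 7.14% of the members, against 13.1% of all tested probe sets, made up of 6.43% that were higher in learning rats and 6.67% that were lower. The lowest adjusted p of a member was 0.297, for Rpl5. The median member difference was 0.03, against 0.0050 over all tested probe sets, and the median absolute difference was 0.06 against 0.08. The groups overlapped for each of the 42 members, while they did not for 0.405% of tested probe sets.

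**Figure D1:**
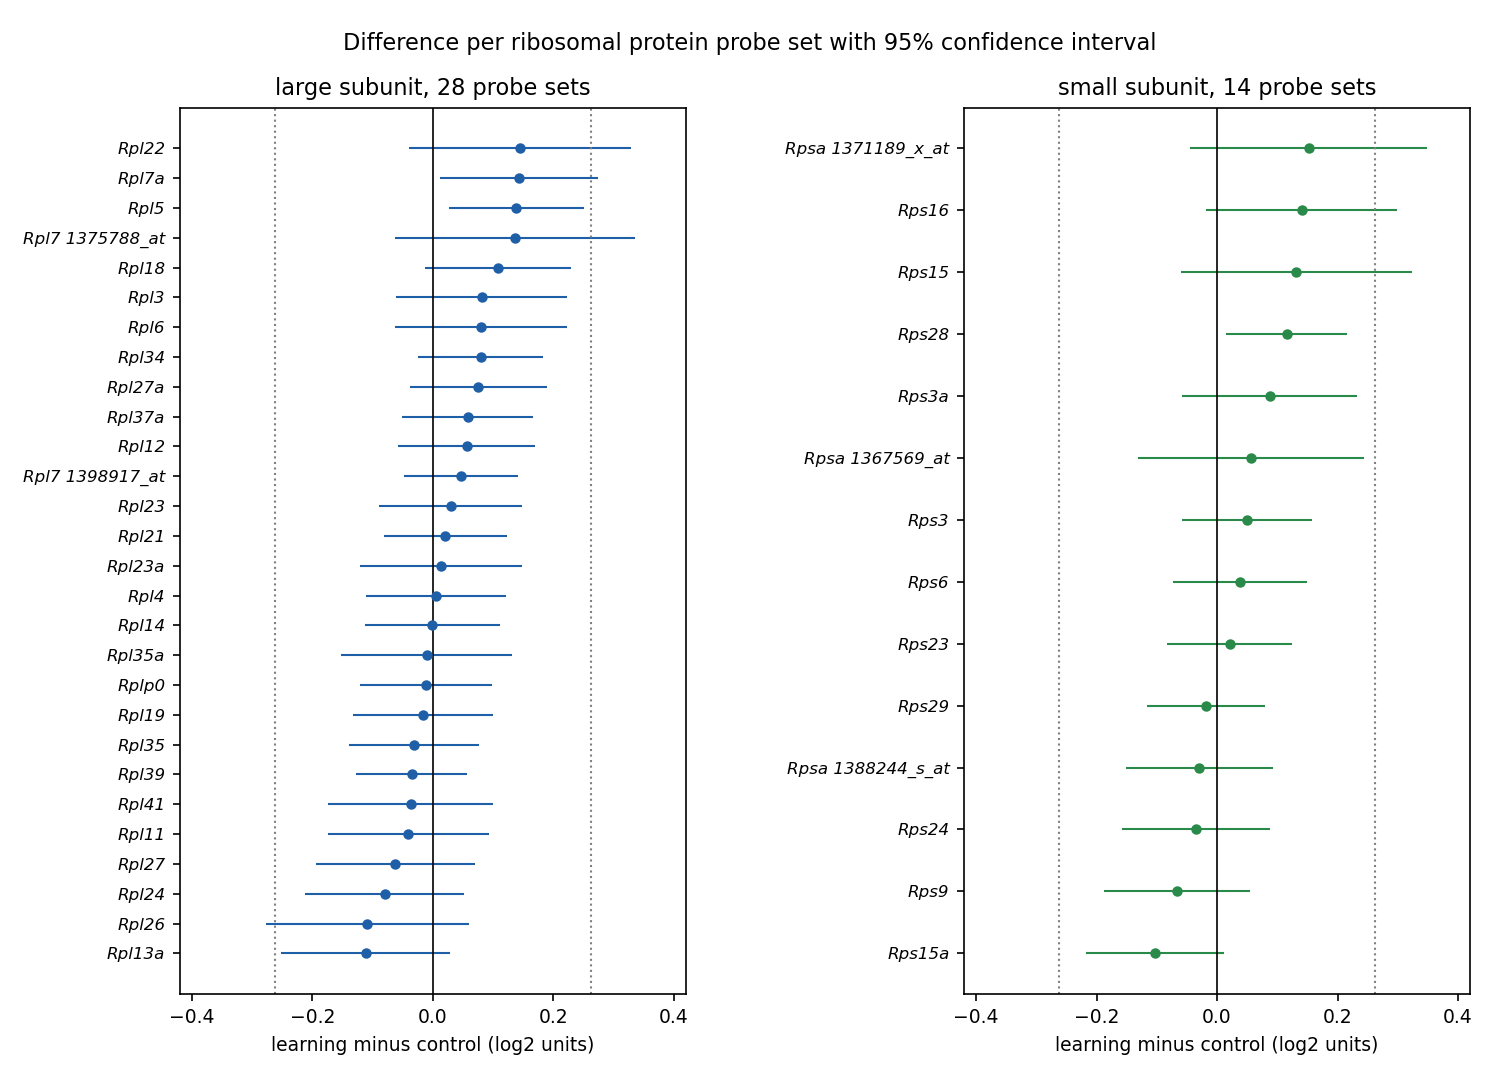
Learning minus control difference in log2 units for each tested ribosomal protein probe set, with the 95% confidence interval from limma; the dotted lines mark a 1.2-fold difference either way. Of the 42 intervals, 35 lie wholly within those lines, and those of Rpl5, Rpl7a and Rps28 lie above 0.

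These small differences were measured with small errors. For 35 of 42 members (83.3%) the 95% confidence interval of the difference lay within 1.2-fold in either direction, against 48.6% of all tested probe sets and 65.4% of the 1058 tested probe sets whose mean was 10 or more. Levels were not matched, since the median level was 11.94 over the 42 members and 10.87 over those 1058. The intervals that reached past 1.2-fold belonged to Rpl7a, Rpl22, Rpl26, the dimmer probe set of Rpl7, Rps15, Rps16 and 1 probe set of Rpsa. The median standard deviation between rats of 1 group was 0.10 log2 units for the members, 0.16 for all tested probe sets and 0.13 for those with a mean of at least 10. It ran from 0.06 to 0.18 over the members and lay below the median of all tested probe sets for 37 of 42 (88.1%), as it did for 74.1% of those with a mean of at least 10. The learning rats varied more than the control rats in 29 of 42 members (69.0%), with median standard deviations of 0.10 and 0.08, in 54.5% of all tested probe sets and in 61.7% of those with a mean of at least 10. Among large subunit members it held for 22 of 28, and among small subunit members for 7 of 14. No test of that spread was made.

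In the large subunit, Rpl5 had the smallest p. Its protein carries the smallest large-subunit ribosomal RNA into the ribosome together with Rpl11 and, when ribosome assembly fails, binds the p53 regulator Mdm2. Its values had a lowest of 12.05, a median of 12.16 and a highest of 12.27 in control rats, and 12.18, 12.32 and 12.41 in learning rats. Most learning rats lay above most control rats, although the ranges overlapped. The difference was 0.14 ± 0.05 log2 units (SE), or 1.10-fold, with a 95% confidence interval from 0.03 to 0.25, and in limma the unadjusted p was 0.0191 and the adjusted p 0.297. The partner gene Rpl11 had a median of 11.19 in both groups and differed by -0.04 ± 0.06 (SE), or by -0.0060 without control replicate 5. The differences of these genes were not tested against each other.

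Rpl7a, an RNA-binding protein of the large subunit, ran from 11.87 to 12.26 in control rats with a median of 12.11, and from 12.13 to 12.38 in learning rats with a median of 12.24. The groups overlapped, with control replicate 1 the lowest of all arrays. The difference was 0.14 ± 0.06 (SE; unadjusted p = 0.0354, adjusted p = 0.349 in limma) and 0.10 without that rat. Rpl22, an RNA-binding protein whose loss can be met by a paralog in mice, had a control median of 11.10 and a learning median of 11.25. Its learning range, from 10.82 to 11.48, enclosed the control range from 10.92 to 11.24. The difference of 0.14 ± 0.09 (SE) was 0.21 without learning replicate 1, the lowest learning array.

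Rpl18 had a median of 10.04 in control and 10.15 in learning rats, with a difference of 0.11 ± 0.06 (SE). Learning replicate 6 was the highest array at 10.37, and without it the difference was 0.07. Rpl34 differed by 0.08 ± 0.05 (SE) and Rpl27a by 0.08 ± 0.05 (SE). Rpl7 had a pair of probe sets, both higher in learning rats, by 0.05 ± 0.04 (SE) on the set with a mean of 12.2 and by 0.14 ± 0.09 (SE) on the set with a mean of 6.05. The second of these was at 0.08 without learning replicate 2.

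Lower values in learning rats were as small. Rpl13a, which in human monocytes can leave the ribosome and silence inflammatory messages, had a control median of 12.04 with a range from 11.94 to 12.09, and a learning median of 11.97 with a range from 11.70 to 12.08. The lower end came from learning replicates 4 and 5, both at 11.70. The difference was -0.11 ± 0.07 (SE; adjusted p = 0.484 in limma). Rpl26, which sits near the exit of the tunnel for the new protein, had a difference of -0.11 ± 0.08 (SE), which was -0.05 when learning replicate 5 was left out. Rpl24, part of a bridge between the subunits, differed by -0.08 ± 0.06 (SE), and by -0.04 without control replicate 4. Rplp0, the base of the stalk that recruits elongation factors and a common reference gene, was at 12.24 ± 0.07 in control and 12.23 ± 0.09 in learning rats (SD, n = 7 each), with a confidence interval of the difference from -0.12 to 0.10. Rpl41, one of the shortest proteins known in animals, differed by -0.04 ± 0.06 (SE). The remaining 14 large subunit probe sets, 1 each for Rpl3, Rpl4, Rpl6, Rpl12, Rpl14, Rpl19, Rpl21, Rpl23, Rpl23a, Rpl27, Rpl35, Rpl35a, Rpl37a and Rpl39, differed by -0.06 to 0.08, with unadjusted p values from 0.245 to 0.988.

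In the small subunit, Rps28, a protein beside the channel where the message leaves the ribosome, had the smallest p. Its control values had a lowest of 11.28, a median of 11.34 and a highest of 11.40, and its learning values 11.37, 11.43 and 11.58. Only the upper end of the control range met the lower end of the learning range, and learning replicates 5 and 6 stood highest. The difference was 0.12 ± 0.05 (SE), or 1.08-fold, with a 95% confidence interval from 0.01 to 0.22, and in limma the unadjusted p was 0.0265 and the adjusted p 0.329. Rps16, whose tail reaches toward the transfer RNA, had a control median of 11.87 and a learning median of 12.02. Its difference was 0.14 ± 0.07 (SE), or 0.19 without control replicate 5, which at 12.15 was the highest array of its group.

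Rps15a, a protein of the small subunit body, had the lowest difference of the tested small subunit members, at -0.10 ± 0.05 (SE; unadjusted p = 0.0737, adjusted p = 0.431 in limma). Its control values ran from 11.93 to 12.22 with a median of 12.05, and its learning values from 11.85 to 12.11 with a median of 11.97. Rps9 and Rps3 both lie where the message enters, and differed by -0.07 ± 0.06 (SE) and 0.05 ± 0.05 (SE). Rps9 was at -0.03 without learning replicate 6. Rps15, of the small subunit head, differed by 0.13 ± 0.09 (SE), and Rps3a, near the message exit, by 0.09 ± 0.07 (SE). Without learning replicate 6 Rps3a was at 0.06, and without control replicate 3 Rps3 was at 0.03. Rps24 differed by -0.03 ± 0.06 (SE), or -0.0055 without control replicate 5, and the remaining members Rps23 and Rps29 by 0.02 and -0.02.

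Rps6, the main ribosomal target of the S6 kinases and so a common readout of mTORC1 activity through its phosphorylation, is measured here only as messenger RNA. It was at 12.01 ± 0.06 in control and 12.05 ± 0.10 in learning rats (SD, n = 7 each). The difference of 0.04 ± 0.05 (SE) had a confidence interval from -0.07 to 0.15, and was 0.01 without learning replicate 4.

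Rpsa, a small subunit protein also known as a laminin receptor, was the member gene with the most probe sets, and they did not move together. The probe set whose name ends in plain _at differed by 0.06 ± 0.09 (SE), the _x_at set by 0.15 ± 0.09 (SE) and the _s_at set by -0.03 ± 0.06 (SE). The suffixes _s_at and _x_at mark probes that also match other transcripts or share sequence with them. In the _x_at set the control rats ran from 8.91 to 9.50 around a median of 9.14, and the learning rats from 9.09 to 9.40 around 9.28, so the learning rats lay inside the control range. Without control replicate 1 its difference was 0.21, and without control replicate 7 that of the plain _at set was 0.00049.

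**Figure D2:**
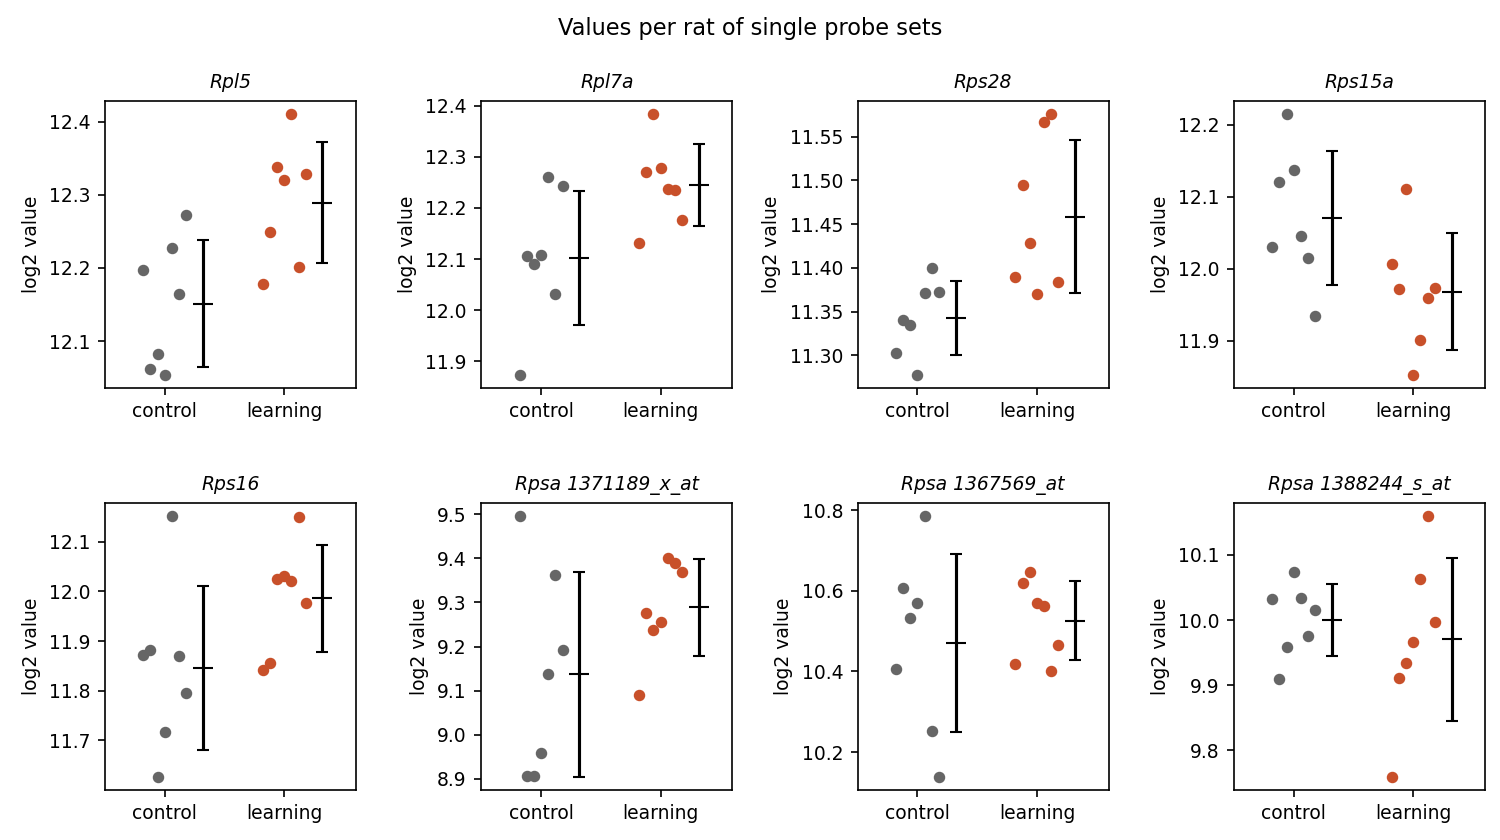
Values per rat on the log2 scale for Rpl5, Rpl7a, Rps28, Rps15a, Rps16 and the 3 probe sets of Rpsa; each point is 1 rat, and bars give the mean and SD of 7 rats. The vertical axes differ between panels and span less than 1 log2 unit, and the groups overlap in each panel.

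The other 5 member probe sets had means below 4 and were not tested. They were the only probe sets of Rpl30, of Rpl3l, a muscle-enriched paralog of Rpl3, and of the Rps27 paralog Rps27l, and the second probe sets of Rpl14 and Rps24. Their differences ran from -0.20 to 0.05. The lowest, of the second Rps24 probe set, had an unadjusted p of 0.0566 when all probe sets were fitted. Values at such levels lie close to the array's background.

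The subunits were then compared with each other. Over the 28 large subunit probe sets tested, learning rats were higher in 16 and lower in 12, and the median was 0.02. Over the 14 small subunit probe sets, 9 were higher and 5 lower, with a median of 0.04. Over all tested probe sets 51.7% were higher. At an unadjusted p below 0.05 there were 2 large and 1 small subunit members, which is 7.14% of each. The mean log2 value of the large subunit probe sets was 11.49 ± 0.02 in control and 11.51 ± 0.03 in learning rats (SD, n = 7 each), and that of the small subunit 11.72 ± 0.03 and 11.76 ± 0.04. Learning replicates 1 and 7 were the lowest of their group in both means. The large minus small difference per rat ran from -0.26 to -0.21 in control rats with a median of -0.24, and from -0.27 to -0.22 in learning rats with a median of -0.26. The ranges overlapped, with learning replicates 4, 5, 6 and 7 below the lowest control rat. The group means differed by -0.01 log2 units, less than the standard deviation of 0.02 between rats of 1 group. That is the spread of single rats and not the error of a difference of means. No p is given for these means, since the genes were chosen with earlier results known. Single rats did not turn the sign, with values from -0.02 to -0.01 when each was left out, but the difference was -0.0022 with no filter on low values and -0.0084 with the mean of CA1 neuron markers as covariate.

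**Figure D3:**
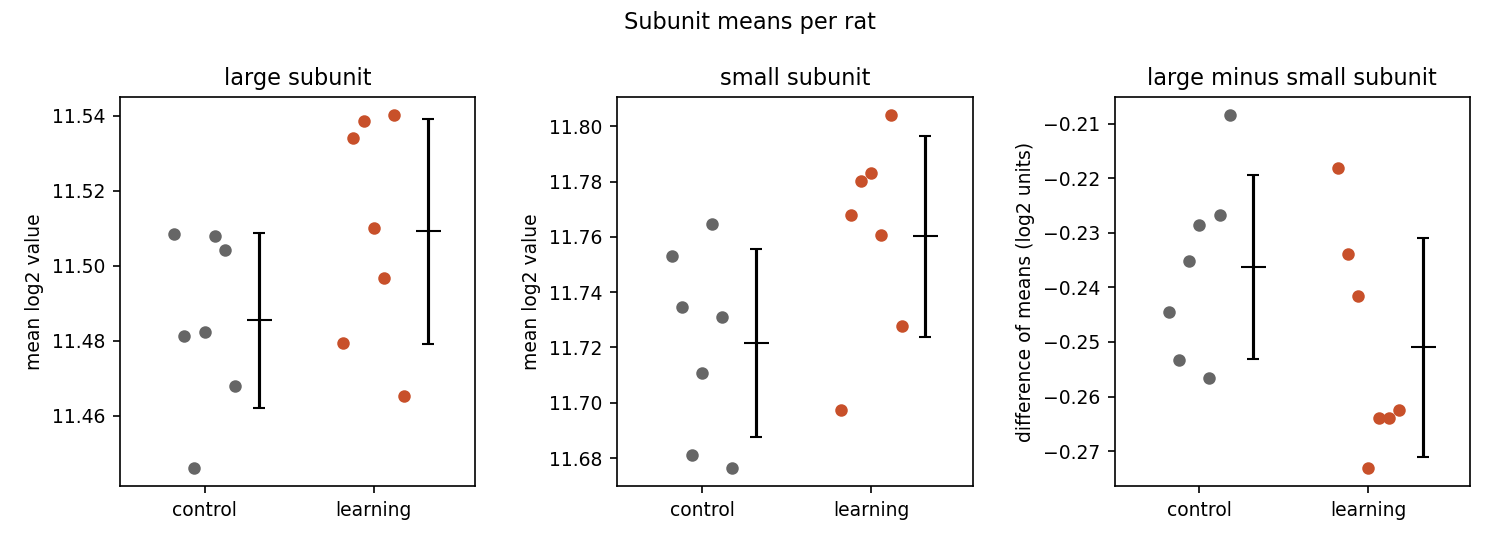
Mean log2 value per rat over the 28 large and the 14 small subunit probe sets tested, and the large minus small difference; points are rats, bars the mean and SD of 7 rats. The differences of the groups, 0.02, 0.04 and -0.01 log2 units, are of the size of the spread between single rats. That spread is not the error of a difference of means. The vertical axes do not start at 0 and cover small ranges.

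Members did not rise and fall as a block from rat to rat. For each pair of members the deviations from the group means were correlated over the 14 arrays, which share their normalization. The median correlation of 861 pairs was 0.04, with a 5th percentile of -0.50 and a 95th of 0.59. Among all pairs of tested probe sets these values were 0.00052, -0.51 and 0.52. The median was 0.02 within the large subunit, -0.0083 within the small subunit and 0.08 between them. These correlations describe the arrays, and members are not replicates.

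**Figure D4:**
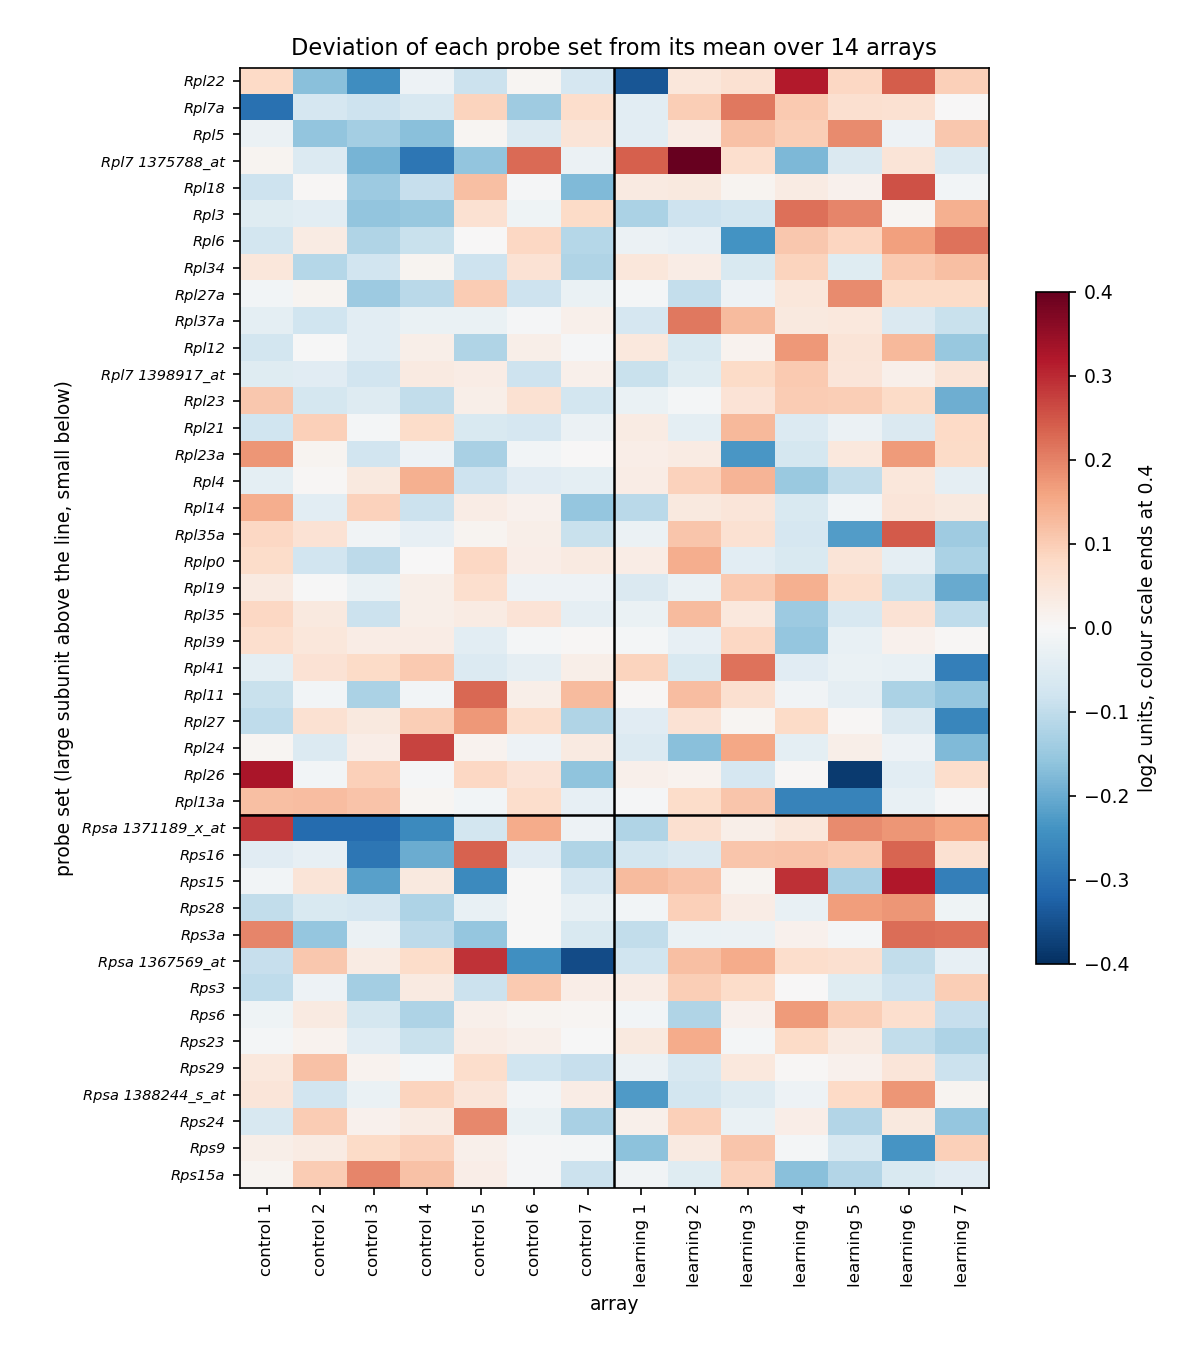
Deviation of each of the 42 tested probe sets from its mean over 14 arrays, in log2 units, with control arrays left and learning arrays right of the vertical line and large subunit members above the horizontal line. Single strong cells, such as Rpl26 in learning replicate 5, occur in different rats for different genes, and no array is coloured one way throughout.

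A further 32 probe sets list a ribosomal protein symbol of the same form together with other symbols, such as those of pseudogenes. They are no members, and no gene is named from them. Of these, 31 were tested, and 8 had an unadjusted p below 0.05 (25.8%, against 13.1% of all tested), with 0 past the adjusted threshold. The 16 tested probe sets of the large subunit had a median of 0.05 with 4 listed, all higher in learning rats. The 14 of the small subunit had a median of -0.05 with 4 listed, of which 3 were lower, the lowest at -0.28 ± 0.10 (SE; adjusted p = 0.269 in limma). Their large minus small difference per rat had a median of -0.16 and a range from -0.18 to -0.12 among controls, against -0.04 and a range from -0.19 to 0.05 after learning. Learning replicate 3, at -0.19, was the only learning rat not above every control rat. The group means differed by 0.10 log2 units, and the standard deviation was 0.02 in control and 0.08 in learning rats. With these probe sets added to the members, the small subunit median became -0.02. The group difference of large minus small became 0.04, where the standard deviation between rats of 1 group was 0.02. Learning replicate 3 was again the only learning rat not above every control rat. Neither group difference was tested. The order of the subunits thus rested on which probe sets were counted.

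**Figure D5:**
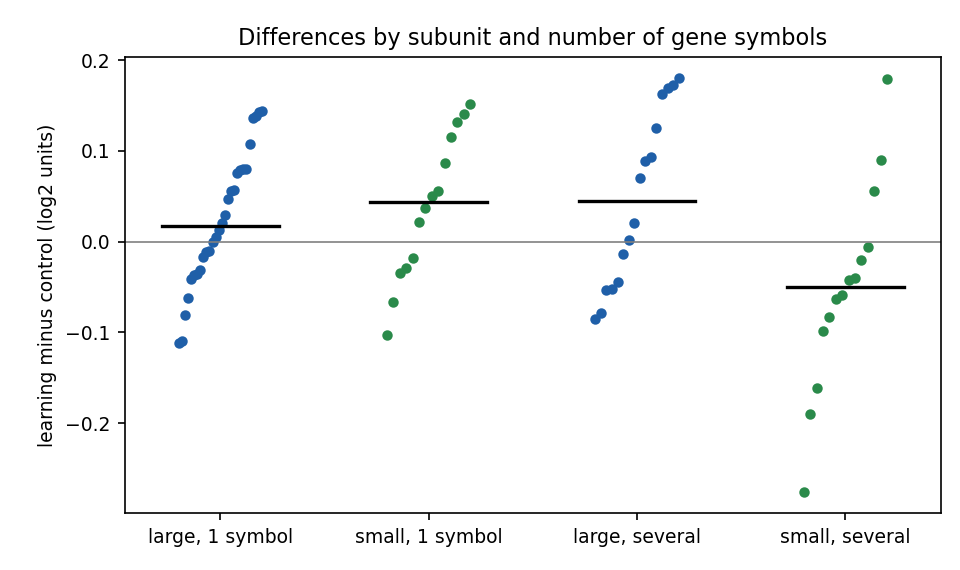
Learning minus control differences in log2 units of single probe sets by subunit, for the members (1 symbol) and for probe sets with several symbols; black lines are medians of 0.02, 0.04, 0.05 and -0.05 from left to right. The small subunit medians lie on opposite sides of 0.

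Other genes of ribosome production and its control were read from lists, with 1 probe set per gene, where 12.6% of all genes tested had an unadjusted p below 0.05 and 50.6% were higher in learning rats. Taken the same way, 23 of 39 ribosomal protein genes were higher and 16 lower. No list member had an adjusted p below 0.05 in limma. Of 55 tested ribosome assembly factors, 29 were higher and 26 lower with a median of 0.02, and 5 had an unadjusted p below 0.05, 3 higher and 2 lower (9.09%). Tsr2, which in yeast and human cells escorts Rps26 to the assembling ribosome, was at 8.14 ± 0.16 in control and 7.68 ± 0.20 in learning rats (SD, n = 7 each), a difference of -0.46 ± 0.09 (SE; adjusted p = 0.153 in limma), while its other probe set differed by 0.06. Utp4, a factor of the early small subunit precursor, differed by 0.29 ± 0.08 (SE). Of 12 tested genes of RNA polymerase I and ribosomal RNA transcription, 4 were higher and 8 lower, with 0 at an unadjusted p below 0.05. The polymerase subunit genes Polr1d and Polr2h differed by -0.14 and 0.13.

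Of 26 tested genes of mTORC1 and S6 kinase signalling, 16 were higher and 10 lower with a median of 0.04. An unadjusted p below 0.05 was found for 2 of them (7.69%), both lower in learning rats. Ddit4 differed by -0.25 ± 0.08 (SE) and Tsc1 by -0.29 ± 0.11 (SE), with adjusted p values of 0.233 and 0.287 in limma. Both encode inhibitors of the pathway, while the inhibitor gene Deptor differed by 0.32 ± 0.16 (SE). Of kinases that activate it, Pdpk1 differed by -0.48 on 1 probe set and by -0.00096 on its brighter one, and Akt1 by 0.35 and 0.15. Of 18 other genes whose messages begin with the oligopyrimidine tract, 8 were higher and 10 lower with a median of -0.01. The 2 of them (11.1%) with an unadjusted p below 0.05 in limma were both higher in learning rats. They were Eif2s3, an initiation factor subunit, at 0.35 ± 0.11 (SE) and the chaperonin gene Cct4 at 0.12 ± 0.05 (SE). Of 70 mitochondrial ribosomal protein genes, 35 were higher and 35 lower, with a median of 0.00022 and 6 at an unadjusted p below 0.05, 1 higher and 5 lower (8.57%). Mrps30 differed by -0.19 ± 0.05 (SE) and Mrpl39 by 0.28 ± 0.10 (SE). Of the listed ribosomal protein paralogs only Rpl7l1 was tested, at 0.03 on its brighter and -0.19 on its other probe set.

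The count of 3 members depended on what else was in the fit. The count over all 9387 tested probe sets, at the same unadjusted p below 0.05 in limma, was 1230. With the mean of the CA1 markers, genes of neighbouring hippocampal neurons, as a covariate the member count was 1, leaving Rps28. The count over all tested probe sets was then 1111. Rpl5 was then at 0.11 and Rpl7a at 0.14, against 0.14 for each without the covariate, with unadjusted p values of 0.0710 and 0.0647 in limma. Of those markers 5 of 8 with a single-symbol probe set were tested, 3 higher and 2 lower, and their mean level ranged between 6.53 and 7.30 in control rats, a range that enclosed the 6.94 to 7.23 of the learning rats. The single markers differed widely, with Wfs1 at 0.95 ± 0.38 (SE) and at 0.43 on its other probe set. Nr4a2 was at -0.37 ± 0.18 (SE), Fibcd1 at 0.31 ± 0.17 (SE), Itpka at -0.05 ± 0.08 (SE) and Lmo3 at 0.0025 ± 0.07 (SE). The gap between the 3' and 5' control probe sets for beta-actin is a sign of RNA integrity. It was 1.32 ± 0.09 in control and 1.41 ± 0.11 in learning rats (SD, n = 7 each). With it as covariate the member count was 4, and 1116 over all tested probe sets. Leaving out control replicate 5, learning replicate 1 or learning replicate 3 raised the member count to 5 each time. The counts over all tested probe sets were then 1158, 1314 and 1255. Other cell markers also varied in level, though none had an adjusted p below 0.05 in limma. Of 3 tested choroid plexus markers 2 were lower, among them Ttr at 7.47 ± 1.07 in control and 5.68 ± 0.14 in learning rats (SD, n = 7 each), and the mean of the 3 ranged between 5.91 and 6.79 in control and 5.68 and 5.98 in learning rats. Of 5 granule cell markers 3 were higher, with Dsp at 0.44 ± 0.15 (SE), Sema5a at 0.29 ± 0.10 (SE) and Prox1 at 0.08 ± 0.11 (SE). The others were lower, Pdyn at -0.10 ± 0.15 (SE) and Calb1 at -0.03 ± 0.05 (SE). The mean of the 5 ranged between 8.70 and 9.03 in control and 8.86 and 9.11 in learning rats. All 7 tested meningeal markers were lower in learning rats, with a median of -0.49 and 0 at an unadjusted p below 0.05, and their mean ranged between 5.34 and 8.30 in control and 5.11 and 8.25 in learning rats. Of 8 microglial markers 7 were lower, with a median of -0.14 and 1 at an unadjusted p below 0.05. Of 9 astrocyte markers 7 were lower, with a median of -0.05 and 1 at such a p. Of 5 CA3 markers 4 had an unadjusted p below 0.05, 2 in each direction, against 12.6% of all genes tested. With the meningeal mean as covariate the member count was again 3, and 1088 over all tested probe sets. The part of choroid plexus, granule cell, CA3, microglial and astrocyte RNA was not tested. In whole tissue, fewer cells of a type and less RNA per cell cannot be told apart.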

How the data were processed

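The authors deposited 1 log2 value per probe set and array, and the submitters' processing notes name GCRMA as the tool. The sources used here give neither its version and settings nor a genome build. The scale was read from the values, and probe-level intensities were not used. Groups and replicate numbers came from the titles, which call the arrays biological replicates. No batch is given. Of 15866 probe sets other than 57 controls, 12783 have 1 gene symbol in the platform annotation, 312 several and 2771 none listed, and 9387 had a mean of at least 4 and were tested. The group difference, learning minus control, came from limma 3.58.1 (lmFit, eBayes) in R 4.3.3 without covariates, with p values adjusted by Benjamini-Hochberg over all 9387. The fit was tested on simulated independent values, where recovery was required only for a change far above those of the members. It does not show how well differences as small as theirs are found. Transcript starts are RefSeq's (GRCr8). Figures used matplotlib 3.10.9.

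The members, gene lists and tests were chosen with earlier results of these data known. Named genes were the 10 of smallest p per subunit, genes whose probe sets had opposite signs, Rps6, Rpl5, Rpl11, Rplp0, Rpl13a, Rpl41 and Rpsa, members below the filter, Tsr2 and the 2 genes of smallest p per other list. Rplp1, Rplp2, Rpl10, Rps4x, Rps26, Rps27a and Fau were also among the names in that rule but have no single-symbol probe set in the annotation used. Members named as remaining, Prox1, Ttr, Dsp, Sema5a, Pdyn, Calb1, the tested CA1 markers, Deptor, Pdpk1, Akt1 and the lowest probe set of several symbols fall outside it. These were named after their values were seen. The alternatives changed the filter, the scaling (quantile or median), the prior (trended and robust), the weights of arrays, the floor (3), the choice of probe sets and the covariates (3 were tried), took replicate number as a block, or left out each array in turn. Same-numbered rats did not deviate together, with correlations from -0.28 to 0.26 over the 7 numbers.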

Additional observations from a re-analysis of the deposited data

Results flagged for a closer look

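A single rat stood apart from the other 6 of its group in 4 of 58 groups of values checked, where chance flags about 1 in 20. Rpl18 was highest in learning replicate 6 at 10.37, with the next at 10.16. Rpl22 was lowest in learning replicate 1 at 10.82, with the next at 11.21. Rpl26 was lowest in learning replicate 5 at 12.53, with the next at 12.84. Rpl24 was highest in control replicate 4 at 11.77, with the next at 11.53. The 4 values came from different rats.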

How the results depend on the processing

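No member passed the adjusted threshold under any alternative run. The count of members at an unadjusted p below 0.05, 3 as reported, was 5 with no filter on low values, 1 with the CA1 marker mean as covariate, and 2 to 5 with 1 rat left out. Over all tested probe sets it was 1230 of 9387 as reported and 1476 of 15866 with no filter. It was 1111 of 9387 with the CA1 covariate, and 944 to 1377 of 9387 with 1 rat left out. With probe sets of several symbols added, a choice made after seeing the data, the member count was 11 of 72, against 1230 of 9387 tested. The small subunit median then became -0.0193 and large minus small 0.0386, from 0.04 and -0.01. Large minus small was -0.0022 with no filter and -0.0084 with the CA1 covariate. The beta-actin covariate moved the median of all members to 0.0429 and of the large subunit to 0.0280, from 0.0254 and 0.0169, and the CA1 covariate moved the large and small medians to 0.0256 and 0.0280. Leaving out 1 rat gave medians of 0.02 to 0.04 for all members, 0.0081 to 0.03 for the large and 0.03 to 0.05 for the small subunit. With the replicate block, a pairing that the rats' deviations did not bear out, the member count was again 3 and no call changed. The count over all tested probe sets was then 1330 of 9387. Among the 26 named probe sets the sign turned in 7 instances, all from differences within 0.06 of 0. With the beta-actin covariate Rpl11 was at 0.0147 and Rplp0 at 0.0280, and with the CA1 covariate the plain _at set of Rpsa was at -0.0098. With 1 rat left out, Rplp0 ran from -0.0365 to 0.0091, Rpl41 from -0.0764 to 0.0053 and the _s_at set of Rpsa from -0.0611 to 0.0056. The cause was not tested.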
